A study of Saccharomyces cerevisiae with 5 samples.

Results

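Aminoacyl-tRNA synthetases are the enzymes that join each amino acid to its transfer RNA, and their genes are described here in budding yeast with and without SUL1. The set is 31 genes, found by gene symbol among the 5886 genes listed in both expression tables. It holds 18 genes of cytosolic enzymes and 13 of mitochondrial enzymes. Messenger RNA was sequenced from 3 libraries of a SUL1 knockout of Saccharomyces cerevisiae BY4741, a haploid laboratory strain derived from S288C, and from 2 libraries of its wild type. SUL1 encodes a sulfate permease of the plasma membrane. Both groups grew in the rich medium YPD at 30 °C and were harvested in exponential phase, and an OD600 of 0.6 is given for the knockout alone. The titles call the libraries biological replicates. The design text counts 3 per group, and the third library of the wild type was not analysed here. BY4741 carries deletions at the HIS3, LEU2, MET17 and URA3 loci in both groups. The number of independent clones behind the knockout is not given in the sources used here. The series asks how loss of SUL1 extends the replicative life of mother cells.

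Every synthetase activates its amino acid with ATP and passes it to the end of the matching tRNA, and each belongs to class I or class II, which differ in the fold of the catalytic domain. Yeast translates messages in the cytosol and, with a separate set of ribosomes and tRNAs, in mitochondria. Most amino acids therefore have a cytosolic enzyme and a nuclear-encoded mitochondrial enzyme from separate genes, while ALA1, GRS1, HTS1 and VAS1 each serve both compartments from a single gene. Genes of the cytosolic enzymes are known to follow growth rate together with ribosome assembly genes, and several respond to the activator Gcn4, whose translation rises when uncharged tRNA accumulates.

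Levels are in FPKM, fragments per kilobase of transcript scaled to library size. The unit divides by gene length, so levels of different genes can be set side by side. SUL1 itself was listed at 0 FPKM in all 3 knockout libraries and at 8.28 and 9.78 FPKM in the wild type. The libraries held an estimated 22550000 to 24950000 fragments. At these depths the cytosolic genes had 5100 to 27576 fragments per library and the mitochondrial genes 433 to 1633, so counting error was at most 1.4% and 4.81% of a value. All 31 genes passed the filter of a mean of at least 1 FPKM. A median log2 fold change of -0.07 over the 5712 genes tested is the background against which the values below stand. RNA came from whole cultures, so a lower share of cells with a transcript and less of it per cell cannot be told apart.

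All 18 cytosolic genes were expressed well above all 13 mitochondrial genes. The lowest cytosolic value in any library was 75.75 FPKM, for ALA1, and the highest mitochondrial value was 42.38 FPKM, for MSW1. The median cytosolic gene had 256 to 268 FPKM in the knockout libraries and 307 to 329 in the wild type, whereas the median mitochondrial gene had 16.34 to 18.24 and 17.03 to 19.14 FPKM. Averaged over the 5 libraries, SES1, the seryl enzyme, stood highest at 686 FPKM, above 94.7% of all genes. KRS1 (lysyl) followed at 624 FPKM, and its library values overlapped those of SES1. TYS1 (tyrosyl), DPS1 (aspartyl), THS1 (threonyl), DED81 (asparaginyl) and GUS1 (glutamyl) came next, between 499.7 and 363 FPKM. The libraries of GRS1, FRS2 and FRS1 overlapped one another, as did those of ILS1 and VAS1, so their order was not fixed beyond the spread. The lowest cytosolic genes were CDC60 (leucyl) at 97.2 and ALA1 (alanyl) at 85.1 FPKM, with ALA1 above 68.7% of all genes. Among mitochondrial genes MSW1 (tryptophanyl) and MSK1 (lysyl) stood highest at 37.3 and 35.7 FPKM, with overlapping libraries, and NAM2 (leucyl) lowest at 10.4 FPKM, above 14.8% of all genes. Between these ends MSM1 (methionyl), SLM5 (asparaginyl) and MSD1 (aspartyl) lay within 16.2 to 16.8 FPKM and their libraries overlapped.

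**Figure D1:**
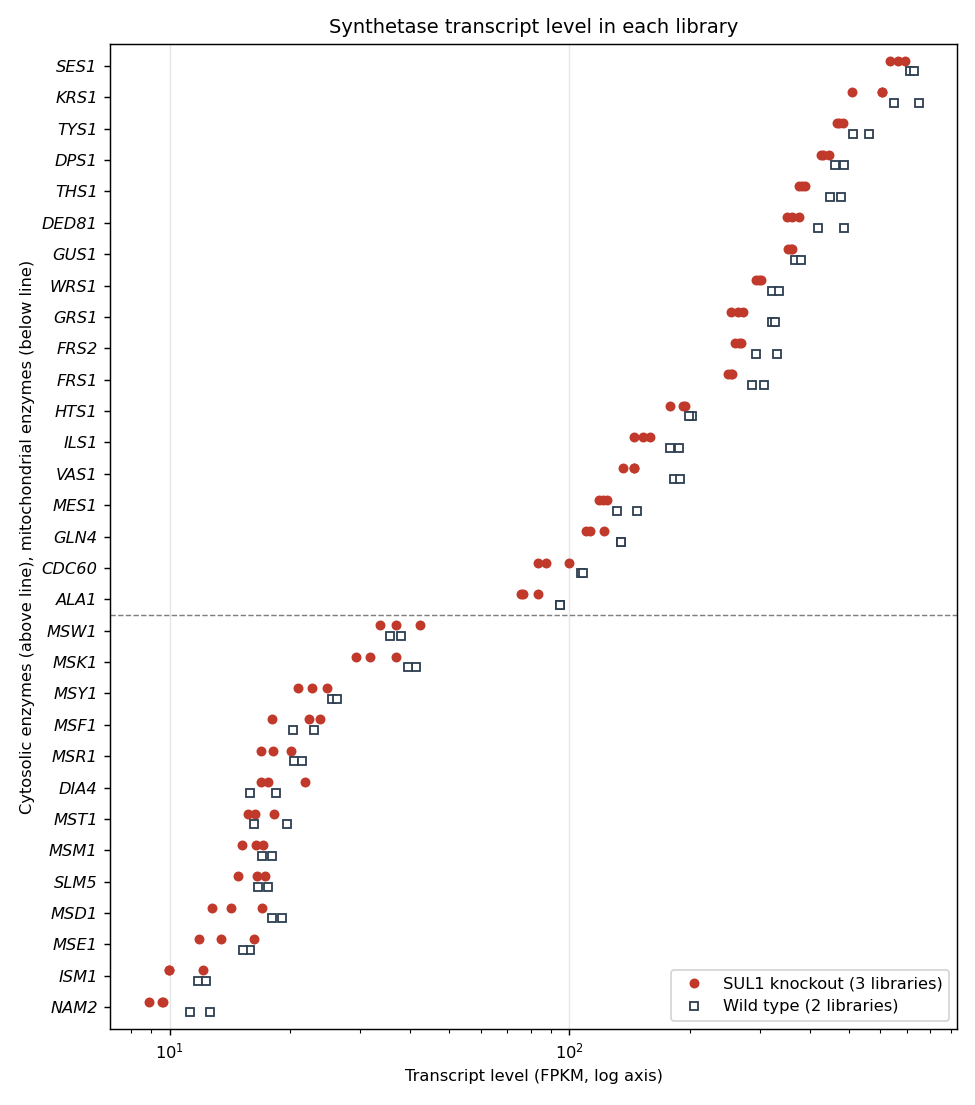
Transcript level of each synthetase gene in FPKM on a log axis, with knockout libraries as filled circles and wild-type libraries as open squares, genes ordered by their mean over the 5 libraries. The cytosolic genes above the dashed line start at 75.75 FPKM and the mitochondrial genes below it end at 42.38 FPKM, and all knockout points of the cytosolic genes lie left of their wild-type points.

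FRS1 and FRS2 encode the beta and alpha subunits of the cytosolic phenylalanyl enzyme, which assembles from equal numbers of each. Their transcript levels lay close together in every library. FRS1 had 254.6, 255.0 and 249.1 FPKM in knockout cells and 286.7 and 307.2 in wild-type cells, and FRS2 had 265.1, 268.4 and 259.1 against 292.6 and 330.5 FPKM. The ratio of FRS1 to FRS2 was 0.9498 to 0.9616 in the knockout libraries and 0.9297 to 0.9798 in the wild type, so the knockout range lay inside that of the wild type.

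For 12 amino acids the level of the cytosolic gene could be set against that of its mitochondrial counterpart within each library, a ratio that no linear scaling of a library changes. The ratio was largest for serine, where SES1 over DIA4 averaged 35.6-fold in knockout cells and 42.1-fold in wild-type cells. It was smallest for methionine, where MES1 over MSM1 averaged 7.49-fold and 7.97-fold. For threonine and asparagine the libraries did not overlap between the groups. THS1 over MST1 was 21.3, 24.0 and 23.4 in knockout cells and 27.6 and 24.3 in wild-type cells. DED81 over SLM5 was 22.8, 20.4 and 24.3 in knockout cells and 25.1 and 27.5 in wild-type cells. In both, the knockout ratios were the lower ones. For threonine the log2 difference, knockout minus wild type, was -0.18, with an exact two-sided permutation p of 0.1, the smallest that 10 regroupings of 3 and 2 libraries allow, and an adjusted p of 0.667 over the 12 ratios. For asparagine it was -0.23 (exact permutation p = 0.2, adjusted p = 0.667). The other 10 log2 differences ran from -0.24 for serine to 0.23 for aspartate, and all had exact permutation p-values of 0.2 or more. The ratio was lower in the knockout for 7 amino acids and higher for 5. With so few regroupings these values do not show that the cytosolic and mitochondrial genes moved alike.

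**Figure D2:**
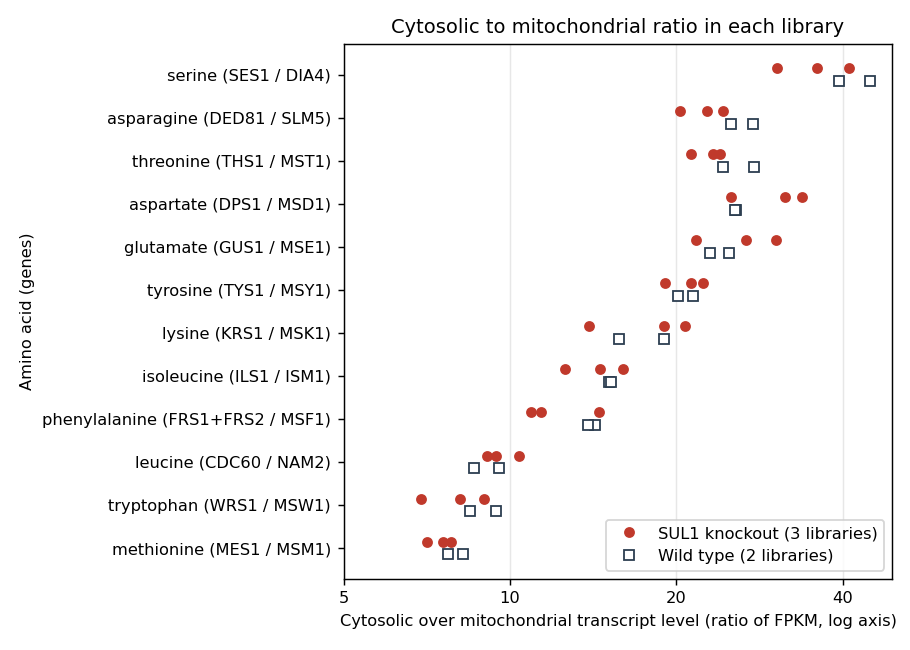
Ratio of the cytosolic to the mitochondrial FPKM for 12 amino acids on a log axis, with knockout libraries as filled circles and wild-type libraries as open squares. For phenylalanine the geometric mean of FRS1 and FRS2 was used. Ratios run from about 7.49 for methionine to 35.6 for serine in the knockout averages, and knockout and wild-type points overlap for all amino acids but asparagine and threonine.

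Every cytosolic synthetase gene had a lower mean in the knockout than in the wild type, by small amounts. For all 18 the 3 knockout libraries lay below both wild-type libraries, a pattern that 28% of all genes tested showed. The median log2 fold change of the 18 was -0.23 and the range -0.39 to -0.06, beside -0.07 for all genes. All 18 values were negative, as were 62.6% of all genes. None passed the test over all genes (limma on log2(FPKM + 1), Benjamini-Hochberg adjusted p under 0.05), which called 0.263% of the genes tested in either direction and 0.07% lower. At an unadjusted p under 0.05, 11 of the 18 were lower, as were 11.6% of all genes. Summed over the 18 genes, the level was 5310, 5112 and 5225 FPKM in knockout cells and 5822 and 6235 in wild-type cells. As a share of all FPKM in a library, that was 0.283%, 0.262% and 0.284% in knockout cells and 0.322% and 0.360% in wild-type cells. With every library set to an equal FPKM sum, the knockout lay below the wild type without overlap for all 18 and for 9 of the 13 mitochondrial genes, beside 44% of all genes lower and 6.97% higher. At that scaling 14 cytosolic and 5 mitochondrial genes were lower at an unadjusted p under 0.05 (limma), beside 25.7% of all genes, and 75.8% of all genes were negative.

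Among the cytosolic class I enzymes, VAS1 showed the largest difference of the set. VAS1 (YGR094W, chromosome VII 672186 to 675500 of build R64, forward strand, a single coding exon), the valyl enzyme of both compartments, had 145.2, 144.8 and 135.9 FPKM in knockout cells and 182.7 and 189.0 in wild-type cells. The groups were well apart, and VAS1 had the smallest adjusted p of the 31 genes (log2 fold change -0.39 ± 0.08 SE, limma, adjusted p = 0.132). ILS1, the isoleucyl enzyme, averaged 152 ± 7.27 FPKM in knockout cells, against 183 ± 6.87 in wild-type cells (SD, n = 3 and 2). CDC60, the leucyl enzyme, had 87.27, 99.55 and 83.60 FPKM in the knockout against 106.99 and 108.34 in the wild type, with knockout replicate 2 nearest to the wild type. GLN4, the glutaminyl enzyme that has no mitochondrial counterpart gene, averaged 115 ± 6.37 against 135 ± 0.11 FPKM. The remaining 4 class I genes differed less. MES1 and GUS1 encode the methionyl and glutamyl enzymes that bind the cofactor Arc1. MES1 had a log2 fold change of -0.20 ± 0.09 (SE), while GUS1 had the smallest of the 18, -0.06 ± 0.08 (SE), with 360.2, 351.8 and 358.0 FPKM in knockout cells and 366.3 and 379.7 in wild-type cells. TYS1 and WRS1, the tyrosyl and tryptophanyl enzymes, had log2 fold changes of -0.18 and -0.14.

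Of the 10 cytosolic class II genes, 7 were lower at an unadjusted p under 0.05, beside 11.6% of all genes, and 0 with the length trend removed. DED81, the asparaginyl enzyme, had 376.0, 351.5 and 360.02 FPKM in knockout cells and 418.1 and 485.6 in wild-type cells, a log2 difference of -0.31 ± 0.10 (SE, limma, adjusted p = 0.196). GRS1, the glycyl enzyme of both compartments, had 271.5, 264.0 and 253.4 FPKM in knockout cells and 320.7 and 327.3 in wild-type cells, and its libraries were tight within each group (-0.30 ± 0.08 SE, limma, adjusted p = 0.18). KRS1, the lysyl enzyme, had 604.3, 511.3 and 605.9 against 650.5 and 749.8 FPKM, with a wide spread in both groups. THS1, the threonyl enzyme, averaged 382 ± 5.74 FPKM in knockout cells, against 464 ± 20.7 in wild-type cells (SD, n = 3 and 2). ALA1, the alanyl enzyme, averaged 78.6 ± 4.27 and 94.9 ± 0.25 FPKM, and the phenylalanyl subunits FRS1 and FRS2 both had log2 fold changes of -0.23. The seryl, aspartyl and histidyl genes differed least. SES1 averaged 665 ± 29.0 against 719 ± 12.3 FPKM, DPS1 435 ± 11.1 against 475 ± 18.6, and HTS1 188 ± 8.81 against 200.9 ± 1.97, with log2 fold changes of -0.11, -0.13 and -0.09. The class II median was -0.25 and the class I median -0.21, and their difference was not tested.

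The 4 genes that serve both compartments had a median log2 fold change of -0.29, and the 14 other cytosolic genes -0.23. HTS1 and VAS1 make their mitochondrial and cytosolic proteins from start codons in 1 reading frame, and the start of each coding sequence is shown because a gene-level FPKM adds up transcripts that begin before and after the first ATG. From build R64 (RefSeq), 5′ to 3′ on the coding strand, with the first and the next in-frame ATG in capitals, HTS1 lies at chrXVI:638951-639019 on the reverse strand and VAS1 at chrVII:672186-672332 on the forward strand.
HTS1: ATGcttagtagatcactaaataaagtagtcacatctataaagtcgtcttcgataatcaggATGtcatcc
VAS1: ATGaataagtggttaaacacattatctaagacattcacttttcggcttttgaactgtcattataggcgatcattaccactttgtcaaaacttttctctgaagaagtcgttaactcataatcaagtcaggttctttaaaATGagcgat
The next in-frame ATG is codon 21 in HTS1 and codon 47 in VAS1. The log2 fold changes of HTS1 and VAS1 were -0.09 and -0.39, near opposite ends of the cytosolic range.

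Mitochondrial synthetase genes had more mixed differences. Of the 13, 11 had a negative log2 fold change and 2 a positive one, beside the 62.6% of all genes. The median was -0.17 and the range -0.33 to 0.12. The knockout libraries lay below both wild-type libraries for 5 of the 13, beside 28% of all genes, and for none did they lie above both, beside 13.1% of all genes. None passed the test over all genes, and 2 were lower at an unadjusted p under 0.05, MSK1 and NAM2, a share near the 11.6% of all genes. The cytosolic minus the mitochondrial median, taken within each library as a log2 deviation from the genes' means, was -0.06, -0.13 and 0.04 in knockout cells and 0.0049 and 0.05 in wild-type cells. The groups overlapped, so the lists were not shown to differ in their response.

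MSD1, the aspartyl enzyme, had 14.21, 16.99 and 12.73 FPKM in knockout cells and 17.98 and 19.14 in wild-type cells (log2 fold change -0.33 ± 0.14 SE, limma, adjusted p = 0.274). MSK1, the lysyl enzyme that also takes part in the import of a cytosolic lysine tRNA, had 31.79, 36.84 and 29.18 FPKM against 41.28 and 39.50 (-0.31 ± 0.12 SE, limma, adjusted p = 0.242). NAM2, the leucyl enzyme that also assists the splicing of mitochondrial introns, had 9.60, 9.58 and 8.87 FPKM against 11.21 and 12.59 (-0.32 ± 0.13 SE, limma, adjusted p = 0.257). In MSD1 and MSK1 knockout replicate 2 lay closest to the wild type, and in NAM2 the 3 knockout libraries lay together. MSR1 (arginyl) and MSY1 (tyrosyl) were the other genes without overlap, at 18.4 ± 1.60 against 21.0 ± 0.69 FPKM and 22.8 ± 1.97 against 25.8 ± 0.60 FPKM. The groups overlapped for the remaining 8 genes. ISM1 (isoleucyl) and MSE1 (glutamyl) had log2 fold changes of -0.17 each, MSM1 -0.10, MST1 (threonyl) -0.09, SLM5 -0.08 and MSF1 (phenylalanyl) -0.02. DIA4, the seryl enzyme, had 21.87, 17.63 and 16.89 FPKM in knockout cells and 15.84 and 18.45 in wild-type cells, with a log2 fold change of 0.12. Leaving out knockout replicate 1 gave 0.0126, and leaving out wild-type replicate 1 gave 0.017. MSW1 had 36.81, 42.38 and 33.65 against 37.92 and 35.56 FPKM, a log2 fold change of 0.03.

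**Figure D3:**
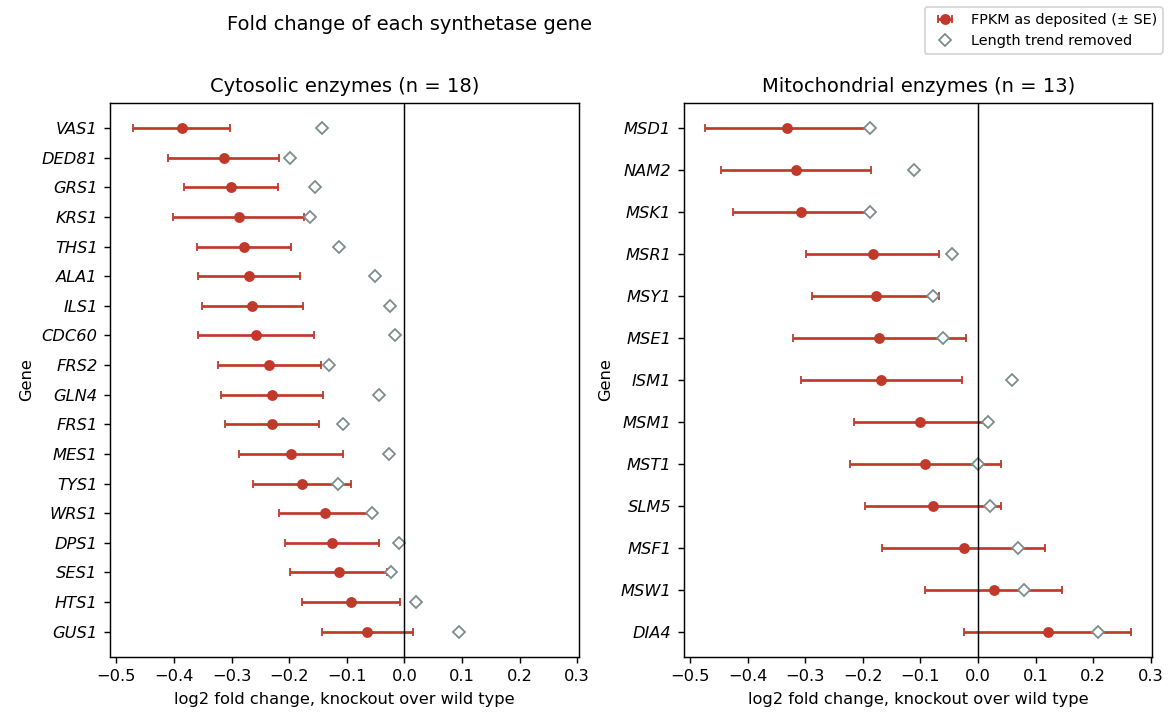
Log2 fold change, knockout over wild type, of the 18 cytosolic and 13 mitochondrial genes. Filled circles with SE bars are from FPKM as deposited, and open diamonds are the values after a trend with coding length was removed from each library. The circles run from -0.39 to -0.06 for cytosolic genes and from -0.33 to 0.12 for mitochondrial genes, and the diamonds lie to the right of the circles.

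Fold changes in these libraries moved with coding length over the whole table, and synthetase genes are long. All genes of under 500 bp had a median log2 fold change of 0.15, those of 1000 to 1499 bp -0.07, those of 1500 to 1999 bp -0.12, those of 2000 to 2999 bp -0.18 and those of 3000 bp or more -0.26. The cytosolic genes have a median coding length of 1896 bp and the mitochondrial genes 1611 bp. In the bin of 1500 to 1999 bp the 6 cytosolic genes had a median of -0.23, and in that of 2000 to 2999 bp the 6 there had -0.25, both below the median of all genes of like length. The 3 cytosolic genes of 1000 to 1499 bp had a median of -0.14, also below that of all genes in their bin. The 3 cytosolic genes of 3000 bp or more, CDC60, ILS1 and VAS1, had a median of -0.26, equal to that of all genes in the bin. The 5 mitochondrial genes of 1500 to 1999 bp had a median of -0.18, below that of all genes in the bin, and the 6 of 1000 to 1499 bp had -0.05, above the -0.07 of all genes of that length. NAM2, the 1 mitochondrial gene of 2000 to 2999 bp, had -0.32, below the median of its bin. ISM1, the 1 of 3000 bp or more, had -0.17, above the median of its bin. Within the set, the correlation of log2 fold change with log2 coding length was -0.52 across the 18 cytosolic genes and -0.66 across the 13 mitochondrial genes, given as a description because the genes share their libraries.

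With the trend removed, the cytosolic median was -0.05 and the mitochondrial median 0.0006, beside a median of -0.0012 for all genes. Of the 18 cytosolic genes, 16 were negative, beside 50.4% of all genes, and GUS1 and HTS1 turned positive at 0.09 and 0.02. The libraries then did not overlap, with the knockout lower, for 7 of the 18, beside 15.1% of all genes, and with the knockout higher for 1, beside 15.2%. DED81, KRS1, GRS1 and VAS1 had the largest values, -0.20, -0.16, -0.15 and -0.14. No member had an unadjusted p under 0.05 after this step (limma), while 4.83% of all genes were lower at that level. The part that length plays in the cytosolic result was not tested beyond these values.

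**Figure D4:**
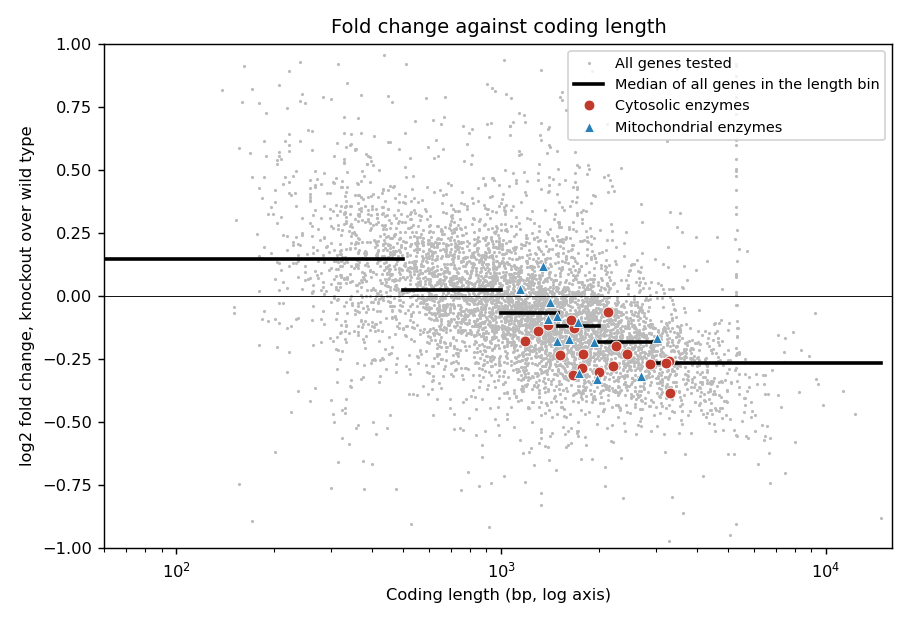
Log2 fold change, knockout over wild type, against coding length on a log axis, for all genes tested (grey), cytosolic enzymes (circles) and mitochondrial enzymes (triangles). Bars are the medians of all genes per length bin, from 0.15 under 500 bp to -0.26 from 3000 bp, and 35 genes outside -1 to 1 are not drawn. Of the 12 cytosolic points between 1500 and 2999 bp, all but GUS1 and HTS1 lie below the bars.

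Leaving out knockout replicate 2 changed the calls. Without knockout replicate 2, limma called 4 cytosolic genes lower, VAS1 (adjusted p = 0.0224), CDC60 (0.037), ALA1 (0.0423) and GRS1 (0.0475), and 2 mitochondrial genes, MSK1 (0.0338) and MSD1 (0.0378), while 10.5% of all genes were called lower. The other leave-one-out fits called no member, and none was called without knockout replicate 2 once the length trend was also removed, where 1.7% of all genes were called lower. Heat-shock chaperones differ widely between replicates in these libraries. The median of 21 chaperone genes, as a log2 deviation from each gene's mean, was 0.18, -0.38 and 0.28 in knockout cells and -0.26 and 0.29 in wild-type cells. The median cytosolic synthetase stood at -0.07, -0.08 and -0.11 in knockout cells and 0.08 and 0.18 in wild-type cells. In that median knockout replicate 2, lowest in chaperones, lay between the other knockout libraries. Gene by gene, it was the lowest knockout library for 8 of the 18 and the highest for 6. Of the 5712 genes tested, it was lowest for 1806 and highest for 2826. In wild-type replicate 2, the library high in chaperones, 16 of the 18 cytosolic genes were above wild-type replicate 1, as were 49.2% of all genes. The chaperone list itself gave 0 calls with all libraries, and without knockout replicate 2 BTN2 was called lower and MBF1 higher (limma). The part of this library difference in the synthetase result was not tested. With either wild-type library alone the cytosolic median stayed negative, at -0.18 without wild-type replicate 2 and -0.27 without wild-type replicate 1.

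Upstream windows of the synthetase genes were searched for letters tied to growth and amino acid control. Each window ran from 300 to 51 bases before the start codon, on both strands, leaving out the 50 bases next to the gene. The RRPE core AAAATTTT, a motif of ribosome assembly genes that reads the same on both strands, lay in the windows of 10 of the 18 cytosolic genes and 0 of the 13 mitochondrial genes, where 9.02% of 5711 windows held it. The Gcn4 core TGACTC was in 5 cytosolic windows (DED81, ILS1, KRS1, THS1 and VAS1) and 1 mitochondrial window (MSW1), beside 6.92% of all windows. The PAC core GATGAG was in 3 cytosolic windows and 1 mitochondrial window, beside 17.7%, and the stress element AGGGG was in 0 cytosolic and 3 mitochondrial windows, beside 19.4%. The letters GAG end the PAC core and begin GAGTCA, the Gcn4 core on the other strand, so these may overlap, but no matches of different motifs overlapped in the synthetase windows. Median A+T content was 66.2% in cytosolic, 67.2% in mitochondrial and 64.4% in all windows. Over all genes, those with an RRPE core had a median log2 fold change of -0.18 and those without -0.06. Among cytosolic genes the medians were -0.25 for the 10 with the core and -0.21 for the 8 without. For the Gcn4 core they were -0.29 for the 5 with it and -0.20 for the 13 without, and for the PAC core -0.13 for the 3 with it and -0.23 for the 15 without. Over all genes, the medians with and without were -0.14 and -0.06 for the PAC core and -0.09 and -0.07 for the Gcn4 core. They were 0.0019 and -0.08 for the stress element. Over all genes the median was thus lower with than without for the RRPE, PAC and Gcn4 cores, by little for the Gcn4 core. Coding length was not taken into account in these medians. Among cytosolic genes the median was higher for the 3 with a PAC core, DPS1 (-0.13), GUS1 (-0.06) and ALA1 (-0.27), than for those without. ALA1 itself lay below the median of those without.

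The windows of DED81, THS1 and VAS1 are shown because they are 3 of the 4 that hold both the RRPE and the Gcn4 core, ILS1 being the other, and that of SLM5, the mitochondrial counterpart of DED81, because it holds none of the motifs. They are from build R64 (RefSeq), 5′ to 3′ on the strand of the gene, with RRPE and Gcn4 cores on either strand in capitals, at chrVIII:143609-143858 (reverse strand) for DED81, chrIX:212199-212448 (forward) for THS1, chrVII:671886-672135 (forward) for VAS1 and chrIII:162273-162522 (reverse) for SLM5.
DED81: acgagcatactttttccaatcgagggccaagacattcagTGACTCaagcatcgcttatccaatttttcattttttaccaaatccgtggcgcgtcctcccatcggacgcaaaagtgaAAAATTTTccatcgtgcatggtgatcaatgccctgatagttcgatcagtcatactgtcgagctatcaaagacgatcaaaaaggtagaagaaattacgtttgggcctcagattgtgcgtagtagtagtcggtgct
THS1: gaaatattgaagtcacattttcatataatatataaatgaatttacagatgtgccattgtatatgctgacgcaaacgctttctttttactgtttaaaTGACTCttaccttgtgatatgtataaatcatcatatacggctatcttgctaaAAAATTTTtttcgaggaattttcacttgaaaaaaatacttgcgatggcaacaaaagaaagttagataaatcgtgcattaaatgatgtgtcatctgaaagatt
VAS1: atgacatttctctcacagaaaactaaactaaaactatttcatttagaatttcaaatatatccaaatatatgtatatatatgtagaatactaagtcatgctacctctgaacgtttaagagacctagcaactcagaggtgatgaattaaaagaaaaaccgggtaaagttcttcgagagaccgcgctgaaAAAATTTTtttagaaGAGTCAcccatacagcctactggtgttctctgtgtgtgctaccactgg
SLM5: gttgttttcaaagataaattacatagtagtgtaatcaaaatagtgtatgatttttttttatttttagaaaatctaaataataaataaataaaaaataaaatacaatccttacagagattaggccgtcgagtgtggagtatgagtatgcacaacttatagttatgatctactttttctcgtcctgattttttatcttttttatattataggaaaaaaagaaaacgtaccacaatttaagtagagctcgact
Counted back from the start codon, the RRPE core of VAS1 begins at base -113 and the Gcn4 core at base -98, and the first 26 bases of the window lie in the neighbouring gene DRN1. The DED81 window lies within 437 bases that separate DED81 from YHR020W, the divergently transcribed gene of the cytosolic prolyl enzyme. A match gives letters only and does not show that a factor binds there.

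**Figure D5:**
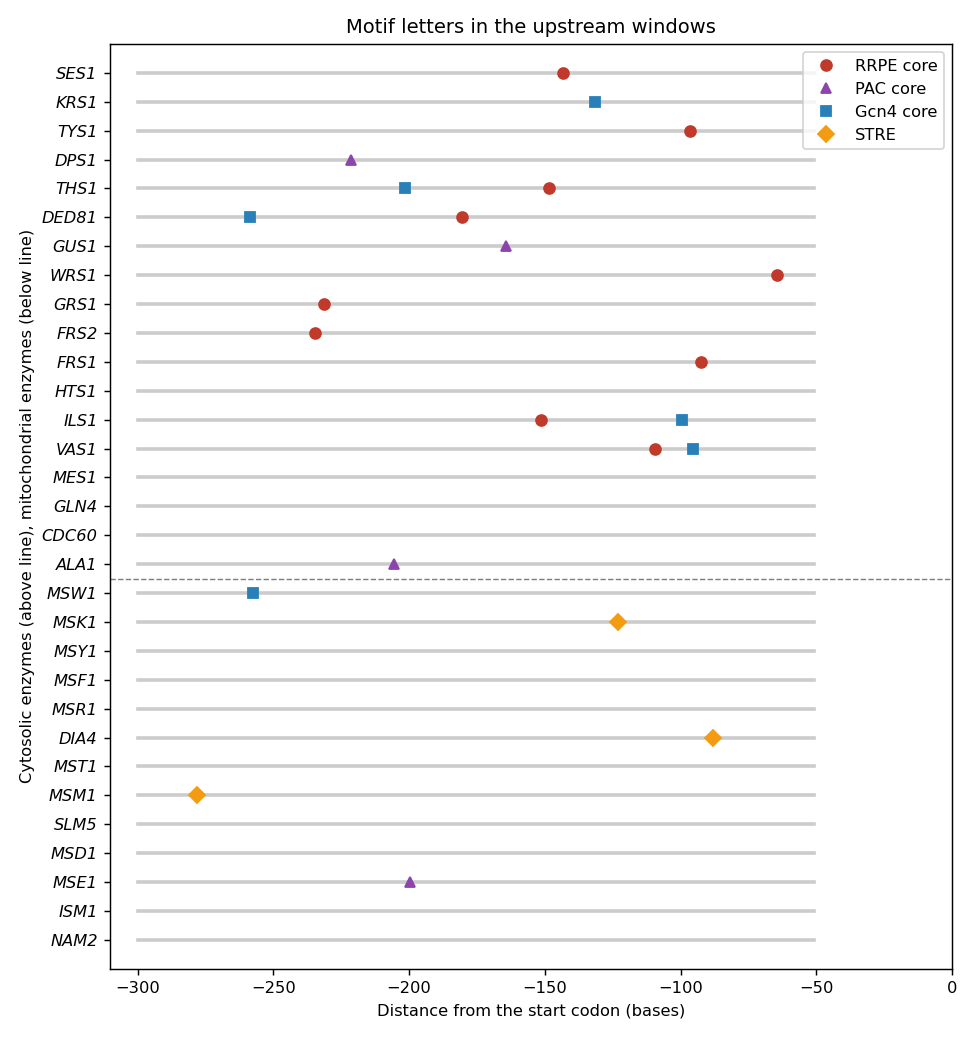
Positions of 4 motif cores in the upstream window of each synthetase gene, in bases from the start codon, genes ordered by level with cytosolic enzymes above the dashed line. Grey bars mark the windows searched. RRPE cores (circles) lie in 10 cytosolic windows and in 0 mitochondrial windows.

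Other genes of tRNA charging, from a list of 8, gave 0 calls over all genes, 7 negative values beside 62.6% of all genes, and a median of -0.14 beside -0.07. With the length trend removed, 4 of the 8 were negative, beside 50.4% of all genes, and the median was -0.02. That alternative was added for these lists after the data were seen. The 3 cytosolic synthetases outside the named set, GRS2 aside, lay lower in the knockout without overlap, as did 28% of all genes. They are YHR020W (prolyl), at 108.7, 140.5 and 115.5 FPKM against 149.2 and 154.5, YDR341C (arginyl), at 230 ± 13.5 against 274 ± 14.8, and YNL247W (cysteinyl), at 128 ± 5.90 against 151 ± 2.76. YNL247W and YDR341C had the largest test statistics of the list (limma, adjusted p = 0.227 for both). ARC1, the cofactor of the methionyl and glutamyl enzymes, averaged 739 ± 42.0 and 832 ± 22.2 FPKM. GTF1 encodes a subunit of the mitochondrial amidotransferase that makes glutaminyl-tRNA. It was the 1 gene of the 8 with all knockout libraries above the wild type, a pattern that 13.1% of all genes showed. Its levels were 104.4, 114.0 and 101.3 against 87.55 and 93.47 FPKM. GRS2, a further glycyl gene, averaged 19.9 ± 2.28 FPKM in knockout cells and 21.4 ± 0.73 in wild-type cells, below GRS1 in every library. For GRS2 the knockout and wild-type libraries overlapped. GRS1 and GRS2 are paralogs, so reads assigned between them are uncertain.

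The list for the response to uncharged tRNA held 6 genes, not all of them sensors. They were GCN1, GCN2, GCN20, YIH1, GCN4 and SUI2. All 6 values were negative, beside 62.6% of all genes, and all 6 genes lay lower without overlap, beside 28%. Their median was -0.24 with 0 calls (limma), and with the length trend removed 5 were negative, beside 50.4% of all genes, with a median of -0.14. GCN1, whose product acts on ribosomes to activate the kinase Gcn2, had 16.14, 21.97 and 15.65 FPKM in knockout cells and 29.66 and 24.50 in wild-type cells (log2 fold change -0.58 ± 0.17 SE, limma, adjusted p = 0.182). The transcript of GCN4 itself had 885.6, 811.6 and 969.3 FPKM against 1037.8 and 1094.0 (limma, adjusted p = 0.236), a level that does not report its translation. Of 16 genes of tRNA maturation, export and delivery, 12 were negative, beside 62.6% of all genes, with a median of -0.19 and 0 calls (limma). For 7 of them the knockout lay lower without overlap, beside 28% of all genes. With the length trend removed 11 were negative, beside 50.4% of all genes, and the median was -0.04. TEF2, one of the genes for the elongation factor that carries charged tRNA to the ribosome, averaged 8188 ± 117 FPKM in knockout cells and 9707 ± 517 in wild-type cells, and is uncertain because reads could be split with its near-identical copy TEF1. PUS1, a pseudouridine synthase of tRNA, averaged 67.4 ± 2.66 and 81.5 ± 10.7 FPKM. Of 9 mitochondrial translation factors 8 were negative, beside 62.6% of all genes, with a median of -0.21 beside -0.07 and 0 calls. For 5 of them the knockout lay lower without overlap, beside 28% of all genes. With the length trend removed 7 were negative, beside 50.4% of all genes, and the median was -0.07. TUF1, the mitochondrial elongation factor, averaged 171 ± 8.17 against 204 ± 35.4 FPKM, and RMD9, which takes part in the processing of mitochondrial messages, 23.3 ± 1.54 against 27.0 ± 2.37. Without knockout replicate 2, limma called YHR020W (adjusted p = 0.0181), GCN1 (0.0111) and TRM1 (0.0185), a tRNA methyltransferase, lower, and no mitochondrial translation factor. These 3 of the 39 genes in the 4 lists are 7.69%, below the 10.5% of all genes called lower in that fit.

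The pattern of the cytosolic genes over the 5 libraries was most closely matched by PAB1, HEM13 and BBP1, with Pearson correlations of 0.999, 0.998 and 0.998 across 5 libraries. PAB1, the poly(A)-binding protein, had 370.3, 364.6 and 355.7 FPKM in knockout cells and 434.8 and 463.4 in wild-type cells. HEM13, an enzyme of heme synthesis, had 180.2, 168.5 and 168.5 against 234.6 and 272.4 FPKM. BBP1, a component of the spindle pole body, had 16.27, 16.28 and 16.03 against 17.83 and 18.81 FPKM. The 5 points are the same libraries for every gene, and 223 of 5681 other genes reached a correlation of at least 0.95.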

How the data were processed

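Per the file headers, the deposited values are FPKM, 1 table per strain with 1 column per library, scaled by the authors within each column. Build R64 is named in the submitters' processing notes, as are RSEM 1.3.1, HISAT2 2.1.0, DESeq2 1.4.5 and Bowtie2, without their roles. No source used here gives the annotation or whether counting used strand. Tables were joined on the gene identifier (5883 of 5886 matched to R64 RefSeq; 2 symbols turned into dates were restored). Depth was estimated from steps of low FPKM after 135 to 145 bases were taken off the coding length, with 87.0% to 92.6% of values within 0.15 of a whole fragment.

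The 5712 genes that averaged 1 FPKM or more, all 31 members included, entered a limma fit (version 3.58.1, R 4.3.3) of log2(FPKM + 1), trended and robust, genotype alone, two-sided, Benjamini-Hochberg threshold 0.05. This scale understates changes of low genes. Separate cultures are not stated, so p-values measure only the spread between these samples, which may be technical. On simulated data with each gene's own spread, the fit recovered 47.6% of 1.5-fold changes and 82.8% of 2-fold changes. Every member differed by less than 1.5-fold, a range that was not simulated, so 0 calls do not show that the members are unchanged. The length trend was a lowess (span 0.3) of each library's deviation from the gene mean on log2 coding length. Ratios per amino acid were compared by exact permutation of the libraries. All 31 members are named. From each partner list, the genes past the threshold or else the 2 with the largest test statistic are named, and further partners were chosen after their values were seen. The members and lists were chosen with earlier results of these data known. Tables and figures were made in Python 3.11.15 with matplotlib 3.10.9, numpy 2.4.6, scipy 1.17.1 and pandas 2.3.3.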

Additional observations from a re-analysis of the deposited data

How the results depend on the processing

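All 18 cytosolic genes kept a negative log2 fold change under the other pseudocounts, filters, equal FPKM sums, quantile normalization, moderation with neither trend nor robustness, the replicate block and every leave-one-out fit. The replicate block used replicates 1 and 2 of each group. It left out knockout replicate 3, and its fold changes are those of the fit without that library. GUS1 (0.0941) and HTS1 (0.0206) turned positive with the length trend removed, and with knockout replicate 2 also left out, an alternative added after the data were seen, so did DPS1 (0.0202), GUS1 (0.1319), HTS1 (0.0757), ILS1 (0.0239) and SES1 (0.0193). No member was called under any alternative except without knockout replicate 2, where 4 cytosolic and 2 mitochondrial genes were called. The cytosolic median was -0.32 with equal FPKM sums, which shifted the median of all genes to -0.16, -0.0541 with the length trend removed and -0.0534 without knockout replicate 2 as well. Leaving out 1 library moved it between -0.18 and -0.27, and the counts of called cytosolic and mitochondrial genes between 0 and 4 and between 0 and 2.

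The mitochondrial median was -0.0387 after quantile normalization, 0.0006 with the length trend removed and -0.0118 without knockout replicate 2 as well. It was -0.0751 both with the replicate block and without knockout replicate 3, and leaving out 1 library gave -0.20 to -0.08. The cytosolic minus mitochondrial median was -0.06 with all libraries, -0.20 after quantile normalization, -0.14 with the replicate block, and -0.1376 to -0.0451 with 1 library left out. Signs of several mitochondrial genes turned, and the cause was not tested. MSW1 was -0.0627 with equal FPKM sums. Quantile normalization gave MSF1 0.0711, MSM1 0.0043, SLM5 0.0354 and MST1 0.0157. Removing the length trend gave ISM1 0.0592, MSF1 0.0688, MSM1 0.0182, SLM5 0.0217 and MST1 0.0006. That step without knockout replicate 2 gave ISM1 0.0179, MSF1 0.19, MSM1 0.0278, MSW1 -0.0001 and MST1 0.0527. Fits that left out 1 library gave -0.11 to 0.0868 for MSF1, -0.2212 to 0.0389 for MST1 and -0.0596 to 0.1025 for MSW1. Of the 12 ratios, 7 were lower in the knockout, 10 with a pseudocount of 5 FPKM, 11 after quantile normalization and 6 to 9 with 1 library left out. The quantile-normalized ratios were taken with a pseudocount of 1 FPKM and the main ratios with none, so that step changed both.

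Over all genes, 15 were called, 11 higher and 4 lower. The count was 8 with equal FPKM sums (4 and 4), 6 with the length trend removed (5 and 1), 0 with the replicate block (limma, 400 at an unadjusted p under 0.05), 0 to 896 with 1 library left out (896 without knockout replicate 2, 298 higher and 598 lower) and 291 without knockout replicate 2 and the length trend (194 and 97). Without wild-type replicate 1 or 2 the lone wild-type library is assumed to vary like the knockout, and limma called 0 genes, with 747 and 318 at an unadjusted p under 0.05. Libraries of the same number deviated in opposite directions (correlations of -0.367 and -0.425), so the numbers were not taken as pairs. The filters and the moderation do not enter the ratios, which were not recomputed under them. Depth limits the mitochondrial genes most, at 433 fragments in the lowest value.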
